A study of Mus musculus with 6 samples.

Results

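Periportal hepatocytes are the liver cells nearest the portal tracts, and here they were 2166 of the 4363 barcodes with hepatocyte transcripts (49.6%), and 5.60% of the 38697 barcodes kept as cells from 6 mouse liver libraries. A kept barcode had at least 300 genes, at least 500 UMIs (unique molecular identifiers, each counting one captured transcript) and at most 30% mitochondrial UMIs. A hepatocyte had at least 2% of its UMIs in Alb, Apoa1, Apoc3 and Ttr together and at most 1 UMI over 5 genes of other liver cells. It was called periportal with at least 2 UMIs over Hal, Sds, Cyp2f2, Gls2 and Ctsc, and with at least 2 times as many of these as of the pericentral genes Cyp1a2, Oat, Gulo, Glul and Slc1a2. The mirror rule gave 1242 pericentral hepatocytes, and 955 hepatocytes met neither rule. The members were therefore chosen by their own transcripts, and values of the genes in the rule describe the choice and support nothing.

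The libraries came from wild-type male mice, 8 to 10 weeks old at surgery, all of which had a partial ligation of the inferior vena cava, an operation that congests the liver. Osmotic pumps were implanted 2 weeks later. They delivered CWHM-12, an inhibitor of integrins that contain the αV subunit, at 100 mg/kg per day to the mice of 3 libraries, and the vehicle DMSO to the mice of the other 3 libraries, for 4 weeks in each case. No unligated liver is among the 6 libraries, so each comparison is between congested livers. Single-cell RNA was measured with the BD Rhapsody whole transcriptome assay on suspensions that had been adjusted to consist mostly of nonparenchymal cells, so the number of hepatocytes in a library says nothing of their number in the liver. CWHM-12 1, DMSO 1 and DMSO 2 are labelled as batch 2024.6, and CWHM-12 2, CWHM-12 3 and DMSO 3 as batch 2024.12. No mouse identifier is printed, so the p-values measure only how far libraries spread, and that spread may be technical.

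Blood enters the liver lobule from the portal tracts and leaves by the central vein, so that hepatocytes along this path meet falling oxygen and changing nutrients. Hepatocytes on the portal side are known for urea synthesis, breakdown of amino acids and glucose production, and those around the central vein for glutamine synthesis and the oxidation of foreign compounds under the control of Wnt signals. Among the genes that chose the cells, Hal opens the degradation of histidine, Sds and Gls2 release ammonia from serine and from glutamine, and Cyp2f2 is a cytochrome P450. αV integrins attach cells to matrix proteins such as vitronectin and also free TGF-β from its latent complex. Metallothioneins, which lead the treatment comparison described further on, are small cysteine-rich proteins that bind zinc and are switched on by the zinc-sensing factor MTF1 through metal response elements in their promoters.

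The promoters of the metallothionein genes Mt1 and Mt2, and of Cish, a cytokine- and growth hormone-induced inhibitor of STAT5 signalling, are printed here because these genes were among those of smallest p for CWHM-12 over DMSO. The sequences are the 250 bases before and the 50 after the gene start, from RefSeq on build GRCm38.p6, read on the strand of the gene. Mt1 is at chr8:94178839-94179138 and Mt2 at chr8:94172368-94172667, both on the plus strand, and capitals mark the metal response element core TGCACNC or TGCGCNC, searched on both strands.
Mt1: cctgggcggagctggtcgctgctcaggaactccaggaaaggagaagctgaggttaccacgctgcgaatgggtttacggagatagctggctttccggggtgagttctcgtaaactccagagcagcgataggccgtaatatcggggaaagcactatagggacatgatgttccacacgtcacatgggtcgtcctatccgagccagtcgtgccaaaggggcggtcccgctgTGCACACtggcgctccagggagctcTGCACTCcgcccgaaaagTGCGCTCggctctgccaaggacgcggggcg
Mt2: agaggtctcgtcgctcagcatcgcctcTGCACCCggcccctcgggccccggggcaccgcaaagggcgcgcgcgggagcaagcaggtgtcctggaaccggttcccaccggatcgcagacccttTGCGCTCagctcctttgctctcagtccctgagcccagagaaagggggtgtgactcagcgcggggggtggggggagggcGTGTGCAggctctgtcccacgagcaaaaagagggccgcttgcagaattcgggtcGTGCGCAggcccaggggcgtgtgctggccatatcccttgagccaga
The Cish promoter is at chr9:107296409-107296708 on the plus strand, and capitals mark TTCNNNGAA, the palindrome that STAT factors bind, which reads the same on both strands.
Cish: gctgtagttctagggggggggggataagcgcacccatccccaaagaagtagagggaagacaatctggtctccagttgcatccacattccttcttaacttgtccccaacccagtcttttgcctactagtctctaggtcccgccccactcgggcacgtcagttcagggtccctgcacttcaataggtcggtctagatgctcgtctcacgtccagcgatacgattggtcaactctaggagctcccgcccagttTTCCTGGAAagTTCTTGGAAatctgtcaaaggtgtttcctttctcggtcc
Mt1 held 3 matches to the metal response core and Mt2 held 4, and Cish held 2 matches to the STAT palindrome. Of 32851 promoters of the same length in the table, 25.7% held at least 1 metal response core, 7.11% at least 2 and 0.517% at least 4. The STAT palindrome was found at least once in 8.30% of them and at least 2 times in 0.457%. The promoter of Mup21, a lower gene described further on, was searched for the same palindrome and held 0 matches, so these letters are not in that window. A match describes the letters and does not show that a factor binds there.

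The members were unevenly spread over libraries. They numbered 407, 74 and 678 in CWHM-12 1 to 3 and 240, 94 and 673 in DMSO 1 to 3, and together held 746852, 136872 and 1987550 UMIs in CWHM-12 1 to 3 and 370286, 229128 and 1504259 UMIs in DMSO 1 to 3. A periportal hepatocyte had a median of 1303, 1530 and 2297.5 UMIs in CWHM-12 1 to 3 and of 1190.5, 1378.5 and 1621 UMIs in DMSO 1 to 3. Kept barcodes outside the hepatocyte gate were deeper in each library, with medians of 2417, 3197 and 4163.5 UMIs in CWHM-12 1 to 3 and 2904.5, 3465.5 and 3596 UMIs in DMSO 1 to 3. CWHM-12 2 and DMSO 2 thus rest on the fewest cells, and their values carry the largest counting error. Any 2 libraries had at most 5 of their 10000 barcodes in common. In DMSO 2 a single barcode with 80287 UMIs supplied 35.0% of the periportal UMIs, and CWHM-12 3 held barcodes of 81381 and 38602 UMIs. These 3 barcodes had 15.8% to 20.7% mitochondrial UMIs, and the main results that change without them are given both ways. The correlation of log levels with the other 5 libraries had a median of 0.662 for DMSO 2, against 0.826 to 0.907 for each of the others.

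The mitochondrial share of UMIs in periportal hepatocytes differed by library. Its median was 5.10%, 1.05% and 0.779% in CWHM-12 1 to 3 and 11.3%, 10.1% and 0.641% in DMSO 1 to 3. It went with the batch, with a median of 7.98% over the members of batch 2024.6 and 0.721% over those of batch 2024.12. Kept barcodes outside the hepatocyte gate had medians of 10.0% in batch 2024.6 and 7.81% in batch 2024.12. Within batch 2024.6 the share was also lower in the CWHM-12 library than in both DMSO libraries. Its part in the treatment comparison was not tested.

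The markers of the label, Hal, Sds, Cyp2f2 and Alb, are all part of the rule, so their levels describe the choice and do not check the label. Genes outside the rule are compared with pericentral hepatocytes further on. Hal averaged 852 ± 208 CPM (UMIs of a gene, scaled to the same number of UMIs in each sum) in periportal hepatocytes, 264 ± 115 in hepatocytes of neither class, 74.99 ± 56.7 in pericentral ones and 24.2 ± 27.9 in kept barcodes outside the hepatocyte gate (SD, n = 6 libraries). Sds averaged 723 ± 243 CPM in periportal and 53.9 ± 27.9 CPM in pericentral hepatocytes, and Cyp2f2 1096 ± 363 CPM in periportal and 91.4 ± 63.1 CPM in pericentral hepatocytes. Alb, the serum albumin gene, averaged 29558 ± 5819 CPM in periportal hepatocytes, 19813 ± 2780 CPM in pericentral ones and 1527 ± 426 CPM outside the gate. Ctsc, which encodes a lysosomal protease, was the exception. It averaged 84.8 ± 40.9 CPM in periportal hepatocytes and 1070.2 ± 198 CPM outside the gate, where it was highest, and it supplied the fewest of the UMIs that chose the cells, 358 against 4679 for Cyp2f2, 4355 for Hal, 4062 for Sds and 2859 for Gls2.

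Many members lay close to the thresholds. The median member had 5 UMIs over the 5 periportal genes, with quartiles of 3 and 9 and a maximum of 354. Members with 2 such UMIs numbered 299 and those with 3 numbered 268, while just outside the threshold 555 hepatocytes had 1 and 1147 had none. Pericentral UMIs were absent from 1239 members and present in 927, and 151 members had exactly 2 times as many periportal as pericentral UMIs. A further 495 hepatocytes had at least 2 periportal UMIs but too many pericentral ones. The hepatocyte gate also ran through a continuum: 710 members had between 2% and 3% of their UMIs in the gate genes, with a median of 3.57% over all members, and 707 kept barcodes with between 1% and 2% met the other conditions.

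Transcripts of other cells were found in the members, most of them at lower levels than outside the hepatocyte gate. The 8 sinusoidal endothelial markers summed to 154 to 219 CPM in CWHM-12 libraries and 169.5 to 297 CPM in DMSO libraries, against 8483 to 13473 CPM outside the gate. The 8 Kupffer cell markers summed to 119 to 245 CPM in CWHM-12 libraries and 113 to 302 CPM in DMSO libraries, against 6608 to 11081 CPM outside the gate. Erythroid markers, led by haemoglobin genes, summed to 213 to 6473 CPM in CWHM-12 libraries and 96.0 to 2455 CPM in DMSO libraries, highest in CWHM-12 2 and DMSO 1, against 84.5 to 1520.2 CPM outside the gate, so these markers were not low. The 6 cholangiocyte markers stayed at 14.6 to 27.7 CPM in CWHM-12 libraries and 13.5 to 52.4 CPM in DMSO libraries, with Krt7 at 0, against 64.5 to 154 CPM outside the gate. The 7 stellate cell markers summed to 191, 226 and 41.8 CPM in CWHM-12 1 to 3 and to 459, 127 and 185 CPM in DMSO 1 to 3, against 2105 to 6177 CPM outside the gate, and all 7 had UMIs. The 5 B cell markers summed to 36.5 to 69.6 CPM in CWHM-12 libraries and 39.3 to 143 CPM in DMSO libraries, the 6 T and NK cell markers to at most 17.4 CPM in CWHM-12 libraries and 24.3 CPM in DMSO libraries, and the 4 neutrophil markers to at most 10.7 CPM in CWHM-12 libraries and 11.97 CPM in DMSO libraries. The ranges of the 2 treatment groups overlapped for each of the 8 marker lists.

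Set against pericentral hepatocytes of the same libraries, periportal hepatocytes had more transcripts of the urea cycle genes Arg1, Ass1, Asl and Cps1 and of the gluconeogenic genes Fbp1 and Pck1, and fewer of the cytochrome P450 genes Cyp2e1, Cyp2a5 and Cyp2c38. Both classes were cut from the same profiles, so these differences describe the classes and are not a test of them. With the library as a term, 210 of 5910 genes were higher in periportal hepatocytes (3.55%) and 243 were lower (4.11%) at an adjusted p of 0.05 in edgeR's quasi-likelihood test with Benjamini-Hochberg adjustment. Of 16 tested periportal genes outside the rule 14 were among the higher ones, with a median log2 fold change over pericentral of 1.21, and of 15 tested pericentral genes outside the rule 14 were among the lower ones, with a median of −2.85. The median over all genes was 0.00. Of 19 tested genes of the urea cycle and amino acid breakdown 10 were higher and 1 was lower, with a median of 0.48, and of 15 genes of gluconeogenesis and glycogen 6 were higher and 1 was lower, with a median of 0.26.

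The urea cycle illustrates the periportal side. On the scale of this fit, Arg1, which releases urea from arginine, averaged 3388 ± 930 CPM in periportal and 1371 ± 554 CPM in pericentral hepatocytes (SD, n = 6), a log2 fold change of 1.35 (SE 0.16). Ass1 and Asl, the enzymes that build and split argininosuccinate, were higher by 1.24 and 1.17, and each of these 3 genes was higher in the periportal cells of all 6 libraries. Cps1, which opens the cycle, differed less, by 0.75, and was higher in 5 of 6 libraries. Among genes of glucose production, Fbp1 was higher by 1.13 and Pck1, the phosphoenolpyruvate carboxykinase gene, by 1.02, each in 6 of 6 libraries. G6pc, which frees glucose from its phosphate, differed by 0.55 and was higher in 4 of 6 libraries.

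With the genes of the rule left out, the 12 largest periportal differences among genes with at least 20 CPM began with Aldh1b1, a mitochondrial aldehyde dehydrogenase, at 3.92 on the log2 scale (SE 0.38), with 43.8 ± 24.7 CPM in periportal and 2.32 ± 3.04 CPM in pericentral hepatocytes. Hsd17b6, which encodes a steroid dehydrogenase, was the most abundant of the 12, with 726 ± 416 CPM in periportal and 111 ± 84.5 CPM in pericentral cells, a log2 fold change of 2.74 (SE 0.16). Etnppl, which breaks down phosphoethanolamine, Hsd17b13, a lipid droplet protein of hepatocytes, and Gldc, a subunit of the glycine cleavage system, followed at 2.64, 2.52 and 2.35. The others of the 12 were Gm35696 at 3.28, Cryl1 at 3.22, Cib3 at 2.76, Ugt2b38 at 2.62, Ctnnbip1 at 2.58, Clec2h at 2.49 and Serpina12 at 2.36. Ctnnbip1 encodes an inhibitor of β-catenin, the effector of the Wnt signals that mark the pericentral side. Each of the 12 was higher in all 6 libraries except Ugt2b38, which was higher in 5 and had no UMI in either class of CWHM-12 2.

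On the other side, the lowest fold changes were those of Epcam at −5.18, Gm36419 at −4.88, Cyp2c38 at −4.87, Scara3 at −4.27, Lhpp at −4.11 and Mup15 at −4.08. Tbx3os1 followed at −3.91, Cyp2a5 at −3.85, Gm13775 at −3.69 and Ddit4l, Gm3734 and Pcp4l1 between −3.67 and −3.66. Cyp2e1, the ethanol-oxidizing cytochrome P450 of pericentral cells, averaged 690 ± 458 CPM in periportal and 6726 ± 1731 CPM in pericentral hepatocytes, a log2 fold change of −3.47 (SE 0.23). Epcam is an epithelial adhesion gene of cholangiocytes. It had UMIs in the pericentral class of 5 libraries, at 81.5 CPM in CWHM-12 2 and 153 CPM in DMSO 2, and at most 5.25 CPM in any periportal sum, so cholangiocyte transcripts moved with the pericentral class, and their part in this difference was not tested.

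**Figure D1:**
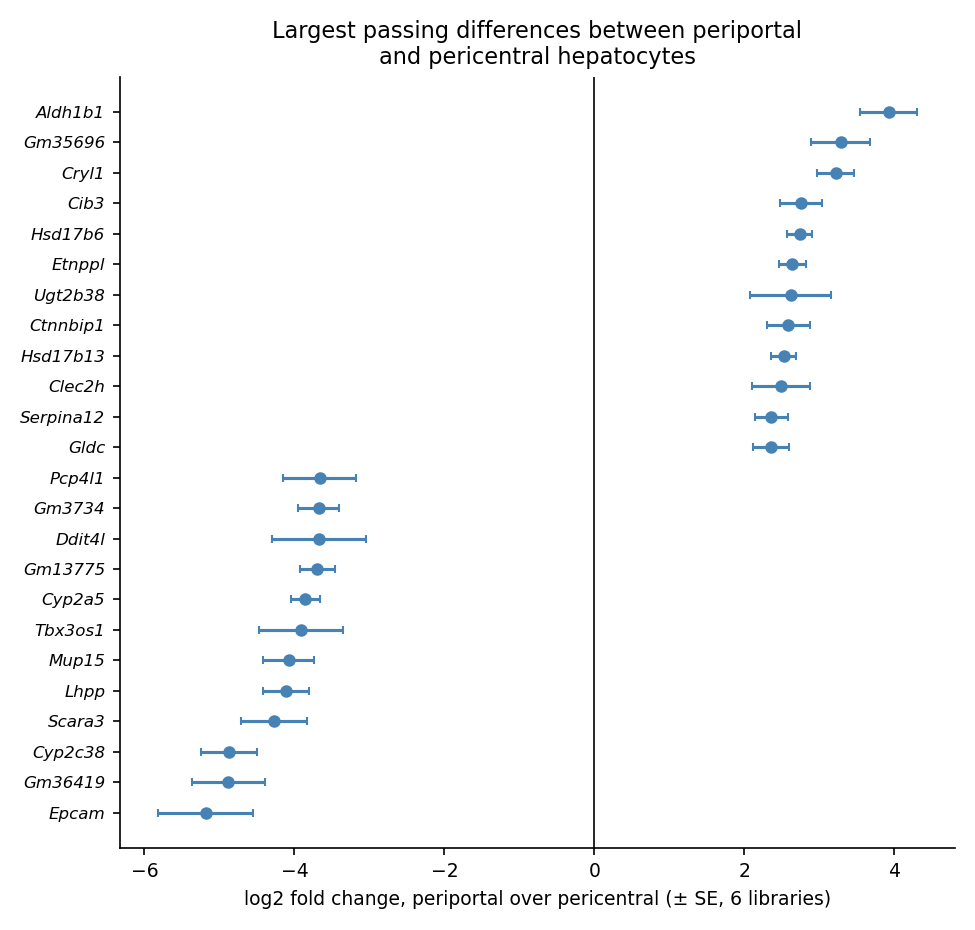
Log2 fold change of periportal over pericentral hepatocytes for the 12 largest passing differences in each direction among genes with at least 20 CPM in either class, with the standard error from 6 libraries. Aldh1b1 is farthest to the right at 3.92 and Epcam farthest to the left at −5.18.

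Hepatocytes of neither class mostly lay in between. Of 18 periportal genes outside the rule, 15 had their mean CPM in the order periportal, neither, pericentral, and of 20 pericentral genes 18 had the opposite order. The periportal list was not uniform. Apof, an apolipoprotein gene, and Cdh1, the E-cadherin gene, differed between periportal and pericentral hepatocytes by 0.47 and −0.38 on the log2 scale and did not pass. Mup20 and Mup3, which encode major urinary proteins, were higher in periportal hepatocytes by 1.31 and 0.86, and Mt1 and Mt2 by 1.05 and 1.47.

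**Figure D2:**
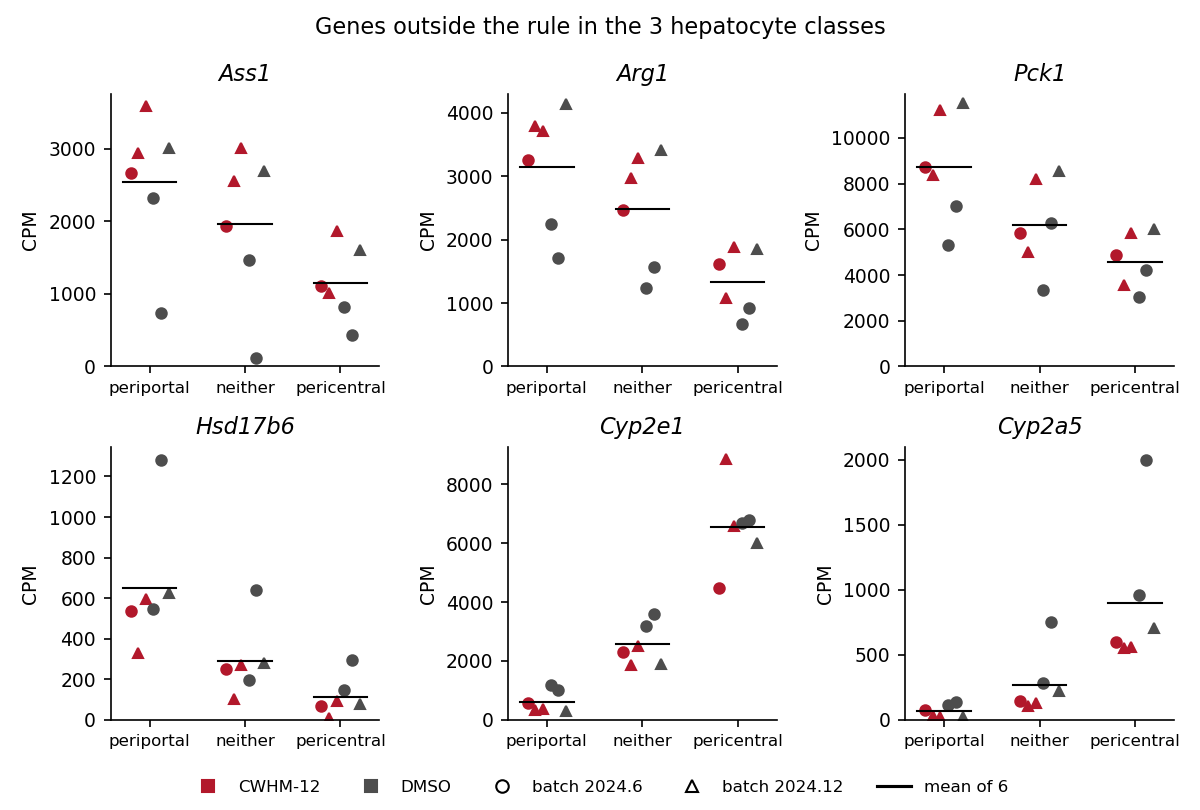
CPM of 6 genes outside the rule in periportal hepatocytes, hepatocytes of neither class and pericentral hepatocytes, 1 point per library and a bar at the mean of 6. Ass1, Arg1, Pck1 and Hsd17b6 step down from left to right in their means, and Cyp2e1 and Cyp2a5 step up.

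The periportal share of zonally assigned hepatocytes did not separate the treatments. It was 76.6% (95% Wilson interval 72.9% to 80.0%), 61.2% (52.3% to 69.4%) and 55.8% (53.0% to 58.6%) in CWHM-12 1 to 3. It was 56.1% (51.3% to 60.7%), 77.0% (68.8% to 83.6%) and 67.9% (64.9% to 70.7%) in DMSO 1 to 3. The groups overlapped across their whole range, at 64.5% ± 10.8 in CWHM-12 and 67.0% ± 10.5 in DMSO libraries (SD, n = 3 each), and the exact two-sided permutation test gave p = 0.7, where 3 against 3 libraries allow no p under 0.1. The CWHM-12 share was 10.1 percentage points above that of DMSO in batch 2024.6 and 9.43 points below it in batch 2024.12, so the batches pointed in opposite directions. With each cell thinned to 2000 UMIs, and shallower cells left out, the shares were 84.1%, 63.9% and 56.7% in CWHM-12 1 to 3 and 66.7%, 77.3% and 73.2% in DMSO 1 to 3. The intervals cover counting error only.

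Whether αV inhibition altered the transcripts of periportal hepatocytes was tested on the summed UMIs of each library with a batch term. None of 6829 genes passed an adjusted p of 0.05 in edgeR's quasi-likelihood test (0% called), and 240 had an unadjusted p under 0.05 (3.51%). In simulated counts the same fit called 8% of the genes changed by 1 on the log2 scale and 75% of those changed by 2. The simulation changed 200 genes at once and held no dominant barcode, so these shares need not hold for the data. A gene that did not pass may therefore still have changed. DESeq2 and limma voom each called 1 gene, Mt2. Leaving out single libraries changed this count. Without DMSO 2, whose sum is dominated by 1 barcode, 6 genes passed, with Mt1, Mt2 and Gm5096 higher and Cyp4a12a, Mup20 and Sod3 lower in CWHM-12. Without CWHM-12 1, which leaves batch 2024.12 alone to compare the treatments, Mt2 and Hbb-bt passed, and without DMSO 3, which leaves batch 2024.6 alone, Fos and Foxq1 passed. The 3 CWHM-12 libraries all lay above the 3 DMSO libraries for 363 genes (5.32%) and all below for 357 (5.23%). The median log2 fold change of all genes was 0.01. Levels in this comparison are CPM on library sizes scaled by the trimmed mean of M values, and standard errors are those of the fold change.

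The metallothionein genes, whose promoters are printed above, lay above the DMSO libraries in all 3 CWHM-12 libraries, and Mt2 had the largest positive log2 fold change of all 6829 genes. It stood at 283, 281 and 305 CPM in CWHM-12 1 to 3 and 78.2, 97.1 and 33.0 CPM in DMSO 1 to 3. All CWHM-12 libraries lay close together and above the highest DMSO library. The means were 289.8 ± 12.9 CPM in CWHM-12 and 69.4 ± 32.9 CPM in DMSO libraries (SD, n = 3 each), a log2 fold change of 2.43 (SE 0.39, adjusted p = 0.096), with 1.67 in batch 2024.6 and 3.06 in batch 2024.12. Mt1 stood at 587, 762 and 847 CPM in CWHM-12 1 to 3 and 188, 330.1 and 125 CPM in DMSO 1 to 3, again without overlap, a log2 fold change of 1.94 (SE 0.44, adjusted p = 0.748). Over the alternative settings, the adjusted p of Mt2 ran between 0.000266 and 0.999 and that of Mt1 between 0.000773 and 1.00.

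Most of the metallothionein counts of DMSO 2 came from 1 barcode. Its largest barcode carried 51 of its 68 Mt1 UMIs and 17 of its 20 Mt2 UMIs, while the largest share of Mt1 UMIs in 1 barcode of another library was 12.3%. Without the barcodes over 20000 UMIs, Mt1 stood at 608, 789 and 895 CPM in CWHM-12 1 to 3 and 195, 107 and 130.1 CPM in DMSO 1 to 3, a log2 fold change of 2.34. Mt2 then stood at 293, 291 and 310.4 CPM in CWHM-12 1 to 3 and 81.0, 18.9 and 34.3 CPM in DMSO 1 to 3, a log2 fold change of 2.79. Mt1 UMIs in CWHM-12 1 to 3 came from 202, 48 and 501 barcodes, and in DMSO 1 to 3 from 40, 16 and 106. Kept barcodes outside the hepatocyte gate had 379, 563 and 672 CPM of Mt1 in CWHM-12 1 to 3 and 269, 147 and 503 CPM in DMSO 1 to 3, on the plain scale of their sums. There the treatments overlapped across the batches, but within each batch every CWHM-12 library was above every DMSO library. The part of free Mt1 RNA in the hepatocyte values was not tested.

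The other genes of zinc handling had lower ratios. Mtf1, the zinc-sensing factor itself, and the zinc transporter genes Slc39a14, Slc39a4, Slc30a1 and Slc30a10 had log2 fold changes between −0.75 and 0.30. Of the 7 genes tested on the list, 3 were positive and 4 negative, with a median of −0.25, and none passed. Without the largest barcodes the median was −0.42.

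The remaining genes of smallest p on the higher side were mostly low in level. Gm5096, for which no function is stated here, stood at 213, 215 and 234 CPM in CWHM-12 1 to 3 and 89.8, 48.5 and 78.8 CPM in DMSO 1 to 3, a log2 fold change of 1.54 (SE 0.33, adjusted p = 0.624). Smad3, a signal transducer of TGF-β, stood at 35.1, 22.2 and 29.3 CPM in CWHM-12 1 to 3 and 11.6, 4.85 and 10.8 CPM in DMSO 1 to 3, a log2 fold change of 1.58 (SE 0.48, adjusted p = 0.998). The groups did not overlap for either gene. Gm8883, Gm31583 and Rbm10, an RNA-binding splicing factor, had log2 fold changes of 1.59, 1.51 and 1.57, also without overlap. Bcl6, a transcriptional repressor that opposes STAT5 in liver, had 2.32 (SE 0.67), but its values of 51.4, 0 and 71.9 CPM in CWHM-12 1 to 3 overlapped 20.3, 24.3 and 4.71 CPM in DMSO 1 to 3.

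**Figure D3:**
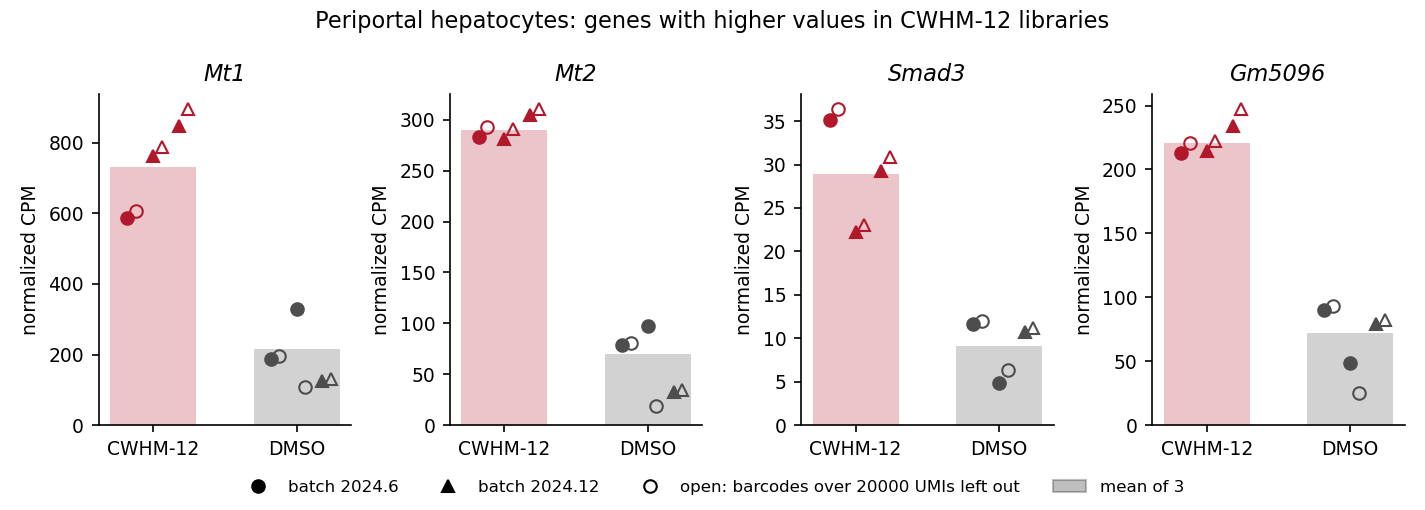
Normalized CPM of Mt1, Mt2, Smad3 and Gm5096 in the periportal hepatocytes of each library, CWHM-12 left of DMSO. Bars are means of 3, filled points are libraries, and open points are the same libraries without barcodes over 20000 UMIs. No gene passed the test, and the filled points of the 2 groups do not overlap for any of the 4 genes.

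On the lower side, genes known for higher expression in male than in female mouse liver recurred. All 10 of these genes had a negative log2 fold change, with a median of −0.78, a range of −1.51 to −0.09 and 4 unadjusted p-values under 0.05, beside a median of 0.01 over all genes. For 4 of the 10 every CWHM-12 library lay below every DMSO library, against 5.23% of all genes. None passed the adjusted threshold. Mup20 and Cyp4a12a are among these 4 and were also named for their small p. All gene lists were chosen with earlier results of these data known, so such counts are descriptions and not tests. The median of the male-biased list was −1.26 in batch 2024.6 and −0.27 in batch 2024.12. Over the alternative settings it stayed between −1.38 and −0.22, and without the largest barcodes 8 of 9 tested genes were negative, with a median of −0.64. Without CWHM-12 1 the list divided into 5 positive and 5 negative genes, and that setting gave the median of −0.22.

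Mup20, which encodes the male pheromone darcin, was the most abundant of them. It stood at 9675, 8845 and 6975 CPM in CWHM-12 1 to 3 and 16915, 22357 and 20937 CPM in DMSO 1 to 3, a log2 fold change of −1.21 (SE 0.34, adjusted p = 0.998). All CWHM-12 libraries were below all DMSO libraries, also without the largest barcodes, where the log2 fold change was −1.06. Per cell, the median share of UMIs in Mup20 was 0.790%, 0.665% and 0.349% in CWHM-12 1 to 3 and 1.20%, 0.685% and 1.79% in DMSO 1 to 3, so on this measure DMSO 2 lay inside the CWHM-12 range. Cyp4a12a, a male-predominant fatty acid hydroxylase, stood at 100.3, 81.4 and 84.7 CPM in CWHM-12 1 to 3 and 293, 461 and 181 CPM in DMSO 1 to 3, a log2 fold change of −1.51 (SE 0.36, adjusted p = 0.750). One barcode carried 54 of the 95 Cyp4a12a UMIs of DMSO 2. Without it that library had 259 CPM, still above every CWHM-12 library, and the log2 fold change was −1.33. Over the alternative settings the adjusted p of Mup20 ran between 0.0115 and 1.00, and that of Cyp4a12a between 0.0145 and 1.00.

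Other members of the list were less steady or differed less. Cyp7b1, an oxysterol hydroxylase, had a log2 fold change of −0.98 without overlap, and overlapped at −0.76 without the largest barcodes. Cyp2d9, a steroid hydroxylase, stood at 480.2, 318 and 423 CPM in CWHM-12 1 to 3 and 736, 592 and 515 CPM in DMSO 1 to 3, a log2 fold change of −0.46. Its groups did not overlap, with and without the largest barcodes. Slco1a1, an organic anion importer, stood at 96.5, 44.4 and 70.3 CPM in CWHM-12 1 to 3 and 316, 388 and 88.9 CPM in DMSO 1 to 3, so that DMSO 3 lay inside the CWHM-12 range, with a log2 fold change of −1.20. The major urinary protein genes Mup1, Mup7 and Mup11 are near-identical copies whose counts may be divided among them, and their log2 fold changes lay between −0.91 and −0.33 with overlap. Mup21 and Mup3, of the same family but not on the list, had −1.44 and −0.84 without overlap.

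Cish, whose promoter is printed above, was low in count. It stood at 7.52, 29.6 and 7.99 CPM in CWHM-12 1 to 3 and 29.0, 38.8 and 46.5 CPM in DMSO 1 to 3, a log2 fold change of −2.08 (SE 0.51, adjusted p = 0.750). CWHM-12 2 lay just above DMSO 1, so the groups overlapped. Egr1, an immediate early transcription factor, stood at 51.4, 59.2 and 64.4 CPM in CWHM-12 1 to 3 and 139, 165 and 135 CPM in DMSO 1 to 3, a log2 fold change of −1.31 (SE 0.32, adjusted p = 0.750), and did not overlap. The immediate early and dissociation stress list that holds Egr1 was less uniform. Of its 13 tested genes 3 were positive and 10 negative, with a median of −1.09 in batch 2024.6 and 0.66 in batch 2024.12, so the direction of the list turned with the batch.

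Sod3, an extracellular superoxide dismutase, had the smallest p of the lower genes, with 21.3, 7.40 and 7.46 CPM in CWHM-12 1 to 3 and 84.0, 38.8 and 42.4 CPM in DMSO 1 to 3, a log2 fold change of −2.02 (SE 0.43, adjusted p = 0.624). Cyp2c67, a cytochrome P450 gene, and Pam, a peptide-amidating enzyme, had −1.50 and −2.05. The groups did not overlap for any of these 3 genes. Dcn, a stellate cell marker, stood at 80.2, 81.4 and 19.2 CPM in CWHM-12 1 to 3. In DMSO 1 to 3 it stood at 252, 77.7 and 88.9 CPM, a log2 fold change of −1.23 with overlap. Without the largest barcodes, Dcn stood at 83.1, 84.3 and 19.2 CPM in CWHM-12 1 to 3. In DMSO 1 to 3 it then stood at 261, 94.6 and 92.4 CPM, a log2 fold change of −1.24 without overlap. All 4 stellate cell markers tested were negative in the fit, with a median of −0.94 that lay between −1.38 and −0.28 over the alternative settings. The mean log2 CPM of CWHM-12 minus that of DMSO had a median of 0.10 in batch 2024.6 and −0.59 in batch 2024.12. These batch values are not from the fit, and −0.94 lies outside both. None of the 4 markers passed, and the part of stellate transcripts in lower genes such as Sod3 and Pam was not tested.

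**Figure D4:**
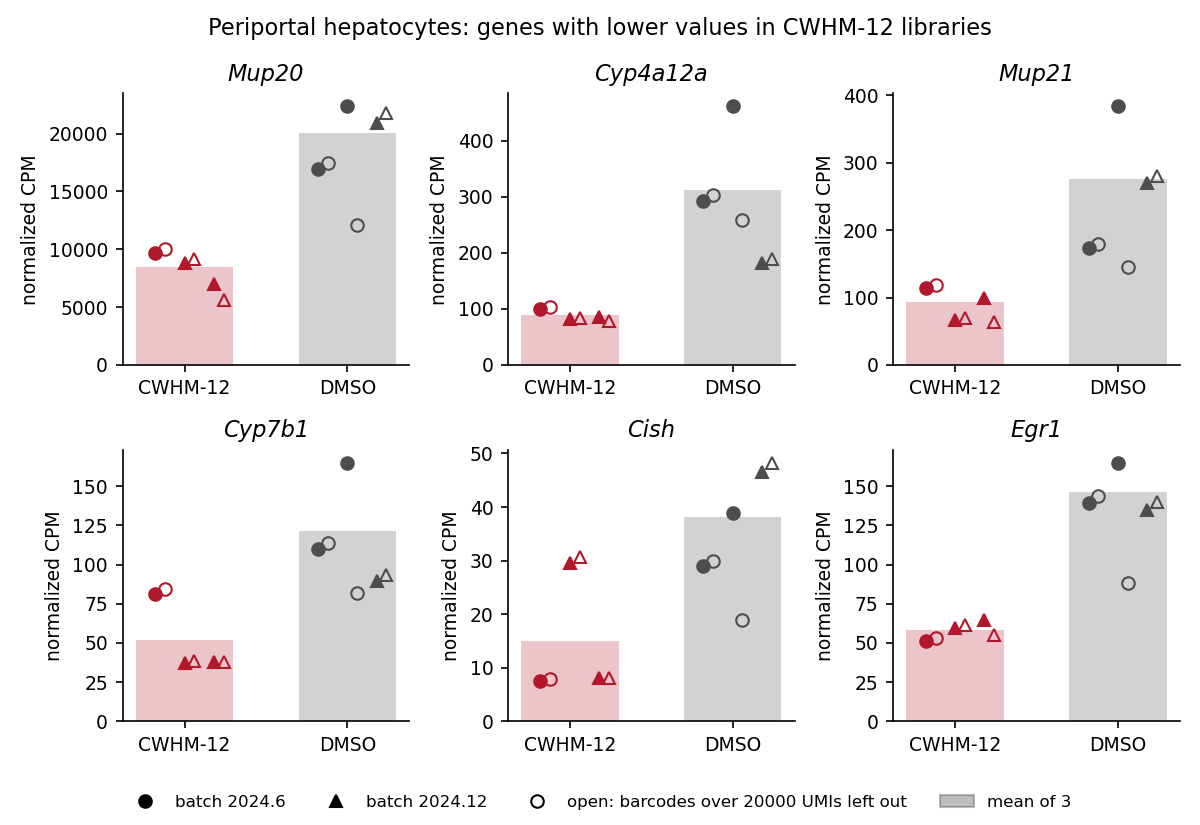
Normalized CPM of Mup20, Cyp4a12a, Mup21, Cyp7b1, Cish and Egr1 in the periportal hepatocytes of each library, CWHM-12 left of DMSO. Bars are means of 3, and open points leave out barcodes over 20000 UMIs, which moves DMSO 2 down for each gene, to 12099 CPM for Mup20.

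The target of the drug was barely detected in these cells. Itgav had 47 UMIs in all members, at 11.3, 14.8 and 4.26 CPM in CWHM-12 1 to 3 and 20.3, 24.3 and 10.8 CPM in DMSO 1 to 3, a log2 fold change of −0.95 (SE 0.60) with overlap. Among its β partners, Itgb1 had 356 UMIs, Itgb5 39, Itgb3 12, Itgb8 1 and Itgb6 0 of 4974947 UMIs, which allows up to 0.603 CPM. CWHM-12 acts on the integrin proteins, so these transcript levels do not check the treatment. All 5 genes tested on the αV list were negative, with a median of −0.68, and −0.98 in batch 2024.6 and −0.30 in batch 2024.12. Spp1, the αV ligand osteopontin, stood at 17.6, 7.40 and 16.5 CPM in CWHM-12 1 to 3 and 81.1, 53.4 and 24.2 CPM in DMSO 1 to 3, a log2 fold change of −1.29 without overlap. It is also a cholangiocyte gene, and its level in pericentral sums averaged 293 ± 324 CPM. The matrix ligand genes Fn1 and Vtn, made by hepatocytes, had −0.68 and −0.51 with overlap.

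Genes of TGF-β signalling were mixed. Of 8 tested, 1 was positive and 7 negative, with a median of −0.13, and without the largest barcodes 3 of 9 were positive, with a median of −0.07. Smad3, described above, was the positive one. An unadjusted p under 0.05 in edgeR's quasi-likelihood test was found for 4 of the 8, against 3.51% of all genes. Of the 8, 1 had all CWHM-12 libraries higher and 2 all lower, against 5.32% and 5.23% of all genes. None passed the adjusted threshold. The receptor genes Tgfbr1 and Tgfbr2 had −1.60 and −1.42, the first with overlap and the second without, at 7.52, 0 and 14.9 CPM in CWHM-12 1 to 3 and 34.8, 24.3 and 26.9 CPM in DMSO 1 to 3. Id3, a target of BMP signals, had −1.08 without overlap, and overlapped without the largest barcodes. These genes are also expressed by endothelium and stellate cells, whose markers in the members are given above, the stellate ones with a median of −0.94.

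The zonal programme itself showed no common shift. Of 17 periportal genes outside the rule 7 were positive and 10 negative, with a median of −0.23, and of 12 pericentral genes 5 were positive and 7 negative, with a median of −0.03. None passed. Hsd17b13 stood at 356, 259 and 323 CPM in CWHM-12 1 to 3 and 542, 1529 and 379 CPM in DMSO 1 to 3, a log2 fold change of −0.95 without overlap. The genes that chose the cells had 0.50 for Hal, 0.34 for Sds, 0.21 for Gls2, −0.30 for Ctsc and −0.64 for Cyp2f2, given as a description.

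Genes of nitrogen metabolism leaned the other way from the male-biased list. Of 20 tested genes of the urea cycle and amino acid breakdown 13 were positive and 7 negative, with a median of 0.23, and 6 had all CWHM-12 libraries above all DMSO libraries, with and without the largest barcodes, against 5.32% of all genes. These 6 were Asl, Otc, which makes citrulline, Hpd, Fah and Hgd, enzymes of tyrosine breakdown, and Agxt, which clears glyoxylate. Agxt stood at 349.8, 311 and 411 CPM in CWHM-12 1 to 3 and 269, 48.5 and 236 CPM in DMSO 1 to 3, a log2 fold change of 0.85. The fold changes of Hpd, Fah, Otc, Asl and Hgd were 0.70, 0.62, 0.45, 0.39 and 0.36. DMSO 2, the library with a dominant barcode and the lowest correlation with the others, was the lowest of the 6 libraries for each of these 6 genes. None passed, and the list median was 0.53 in batch 2024.6 and 0.04 in batch 2024.12.

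Lipid genes divided by direction. Of 13 tested genes of lipid and cholesterol synthesis 12 were negative, with a median of −0.26. Over the alternative settings this median ran between −1.15 and 0.01. Elovl6, Acaca and Insig1, 3 of the 13, had all CWHM-12 libraries below all DMSO libraries, against 5.23% of all genes, at −0.93, −0.85 and −0.64. Elovl6 lengthens fatty acids, Acaca makes malonyl-CoA and Insig1 restrains sterol synthesis. Of 12 tested genes of fatty acid oxidation 9 were positive, with a median of 0.29. Ehhadh and Ppara, a peroxisomal enzyme and the receptor that drives this programme, had 0.41 and 0.40 without overlap, 2 of the 12 against 5.32% of all genes. The synthesis median was −1.04 in batch 2024.6 and −0.20 in batch 2024.12, and the oxidation median 0.35 in batch 2024.6 and 0.20 in batch 2024.12. None of these genes passed.

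All 17 coagulation genes were negative, with a median of −0.39, but −1.01 in batch 2024.6 and 0.17 in batch 2024.12, and without CWHM-12 1 the list had a median of 0.18 with 14 genes positive. F12, which starts the contact pathway, was without overlap, the one such gene of the list, or 1 of 2 without the largest barcodes, and stood at 129, 96.2 and 116 CPM in CWHM-12 1 to 3 and 240.3, 228 and 147 CPM in DMSO 1 to 3, with a log2 fold change of −0.64. Over all genes 5.32% had every CWHM-12 library higher and 5.23% every one lower, so 1 of 17 is near the share of all genes. The other genes without overlap in this paragraph are to be read beside these shares. Bile acid genes had a median of −0.55, with 10 of 15 negative. That median was −0.76 in batch 2024.6 and −0.04 in batch 2024.12, and ran between −0.85 and 0.09 over the alternative settings. Cyp7b1 and Slco1a1 are on this list and on the male-biased one. Baat, which conjugates bile acids, stood apart at 0.62 with all CWHM-12 libraries higher, and Slco1b2, an importer of bile acids and bilirubin, had −0.82 with overlap. Acute phase genes turned with the large barcodes: 2 of 12 were positive, with a median of −0.10, and without those barcodes 7 of 12 were positive, with a median of 0.11. Saa1, a serum amyloid gene, had 0.85 without overlap. The glucocorticoid list turned with the batch, at −0.25 in batch 2024.6 and 0.56 in batch 2024.12. The unfolded protein list had a median of −0.18, with Calr, a chaperone of the endoplasmic reticulum, at −0.77 without overlap. G6pc stood at 277, 192 and 272 CPM in CWHM-12 1 to 3 and 484, 2441 and 183 CPM in DMSO 1 to 3, with DMSO 2 far above the others, and its log2 fold change of −1.02 was −1.96 in batch 2024.6 and 0.32 in batch 2024.12.

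**Figure D5:**
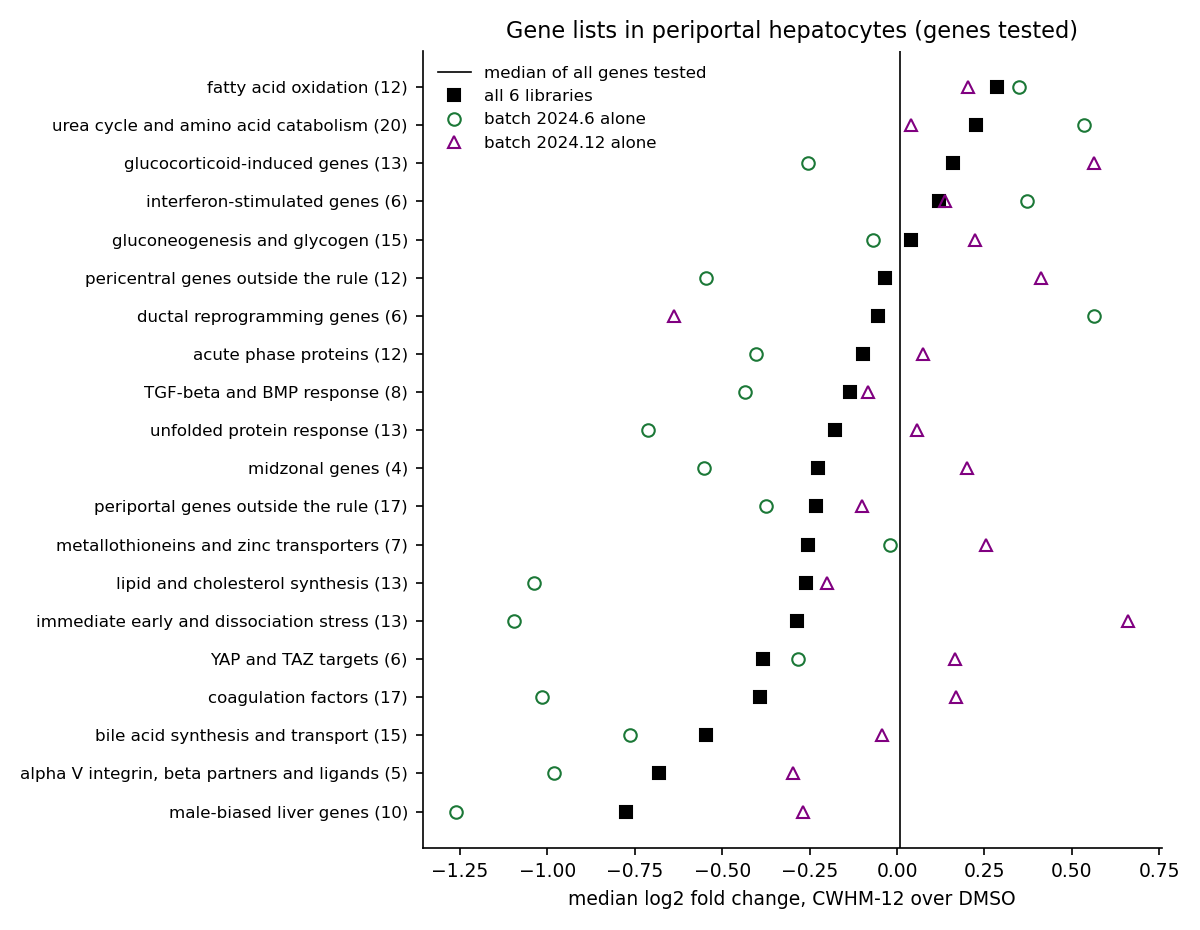
Median log2 fold change of CWHM-12 over DMSO in periportal hepatocytes for the gene lists with at least 4 genes tested, other than markers of other cell types, with the number of genes tested, over all 6 libraries (squares) and within batch 2024.6 (circles) and batch 2024.12 (triangles). The line marks the median of all genes. Male-biased genes are the lowest of the lists drawn, at −0.78, and several lists, coagulation factors among them, have batch medians on opposite sides of the line.

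The response to CWHM-12 was also compared between periportal and pericentral hepatocytes, by testing the class by treatment interaction in a fit with a term for each library. Of 5910 genes 1 passed (0.0169%). In simulated counts this fit called 17% of the genes with a log2 difference of 1 and 79% of those with a difference of 2. Here too 200 genes were changed at once, so these shares need not hold for the data. Atp1b1, the β subunit of the sodium pump, had a log2 difference of responses of 1.95 (SE 0.38, adjusted p = 0.019 in edgeR's quasi-likelihood test). It stood at 101, 78.7 and 103 CPM in CWHM-12 1 to 3 and 133, 341 and 94.5 CPM in DMSO 1 to 3 in periportal hepatocytes. In pericentral hepatocytes it stood at 42.0, 163 and 42.7 CPM in CWHM-12 1 to 3 and 205, 614 and 281 CPM in DMSO 1 to 3. The treatments overlapped in the periportal class and not in the pericentral one. Over the alternative settings the adjusted p ran between 3.77e-05 and 0.999, and the difference was 1.36 to 2.36 when each library was left out in turn. The call was lost without CWHM-12 3, at 1.36, and without DMSO 3, at 1.62.

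The next genes by p did not pass. Aldh3a2, a fatty aldehyde dehydrogenase, had a log2 difference of responses of −1.43, Wwtr1, which encodes TAZ, −1.96, Fabp5, a fatty acid binding protein, 1.69 and Hsd3b5, a male-specific steroid enzyme, −1.39, with adjusted p from 0.153 to 0.380 in the same test. For the genes that led the periportal comparison the difference of responses was −0.26 for Mt1, 1.12 for Mt2, 0.34 for Mup20 and −1.16 for Cyp4a12a, with adjusted p of 0.999, 0.999, 0.999 and 0.466. These values do not show a response particular to the periportal class, nor that the classes respond alike. In pericentral hepatocytes Mt1 stood at 438, 512 and 313 CPM in CWHM-12 1 to 3 and 43.5, 68.2 and 94.8 CPM in DMSO 1 to 3 on the scale of this fit, so there too the treatments did not overlap. The mean log2 CPM of CWHM-12 minus that of DMSO was 1.83 for Mt1 in periportal and 2.59 in pericentral hepatocytes. For Mt2 it was 2.12 in periportal and 0.65 in pericentral hepatocytes, so the 2 genes differed in this.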

How the data were processed

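The authors deposited counts of UMIs as whole numbers, per the file headers, in tables of genes by barcodes with 10000 barcodes per library. The submitters' processing notes name GRCm39 as the genome build. The aligner, annotation release and barcode selection are not stated there. The members were found by the rule in the text, and the members and gene lists were chosen with earlier results of these data known. Counts of periportal and of pericentral hepatocytes were summed per library, and the sums, not the cells, were tested by quasi-likelihood with edgeR 4.0.16 under R 4.3.3 (TMM scaling, filterByExpr, Benjamini-Hochberg adjustment at 0.05). The treatment fit had a batch term. The class fits had the library as a term. The 19 genes of the rule were left out of calls. Levels within a class are CPM, plain or on scaled library sizes as stated. Standard errors were worked back from the F statistic, and a value within a batch is the mean log2 CPM of CWHM-12 minus that of DMSO (prior count 2). The periportal share was compared by an exact permutation test over 20 assignments of 6 libraries. Doublets were not removed: 5 members (0.231%) had a Scrublet score over 0.25 (scanpy 1.11.5), and leaving them out was an alternative.

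Genes were named by rule: for treatment the 8 of smallest p in each direction with at least 20 CPM in either group, for the classes the 12 largest passing differences in each direction, for the interaction the 5 of smallest p, and the genes of the cell rule, integrin genes, metallothioneins and list members. The alternatives left out the batch term, added the replicate number as a block, or used DESeq2 1.42.0, limma 3.58.1 (voom), the size factors of DESeq2, no filter on low counts, other cell, hepatocyte and zonal gates, cells thinned to 2000 UMIs, no doublets, or 1 library fewer. Leaving out barcodes over 20000 UMIs, barcodes over 1% haemoglobin and mitochondrial genes, a gate of 4% and a level filter of 20 CPM were chosen after seeing the data. The scripts were tested on simulated data. Same-numbered libraries correlated by 0.05, −0.22 and 0.32 in their deviations from the group means. These values do not show that the numbers pair the samples, and so few libraries cannot exclude it.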

Additional observations from a re-analysis of the deposited data

Results flagged for a closer look

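The response of Atp1b1, the β subunit gene of the sodium pump, to CWHM-12 differed between periportal and pericentral hepatocytes in the test of the difference itself. The log2 difference of responses, periportal minus pericentral, was 1.95 (SE 0.38, adjusted p = 0.019 in edgeR's quasi-likelihood test of the interaction). The mean log2 CPM of CWHM-12 minus that of DMSO was −0.78 in periportal and −2.24 in pericentral hepatocytes. These means are not from the fit and need not differ by 1.95. Among the 6 libraries, DMSO 2 had the highest level in both classes, and CWHM-12 2 had the highest of the CWHM-12 libraries in the pericentral class. A single barcode of 23118 UMIs held 24.5% of the pericentral UMIs of CWHM-12 2, and the call stayed without barcodes over 20000 UMIs. Among ductal reprogramming genes the difference of responses was 5.59 for Cd24a, 2.36 for Sox9, 1.62 for Spp1 and 0.22 for Epcam. It was −0.02 for Krt18 and −0.27 for Krt8, and none of these passed. With a gate of 4% on hepatocyte transcripts the difference of Atp1b1 was −1.46 and did not pass, and the part of cell composition in it was not tested.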

How the results depend on the processing

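The count of genes that changed with CWHM-12 was 0 in the fit reported, 0 under the replicate block, 1 with DESeq2, 1 with limma voom, 4 without the filter on low counts (Bcl6, Hbb-bt, Mt2 and Siglech) and 0 to 6 when each library was left out. Genes higher, lower and different between periportal and pericentral hepatocytes numbered 21, 37 and 58 without the library term (no replicate block), 138, 147 and 285 with the stricter cell filter, 31, 36 and 67 with a 4% hepatocyte gate, 76, 99 and 175 after thinning to 2000 UMIs, and 132 to 234, 148 to 276 and 285 to 489 when each library was left out, with the lowest totals without DMSO 3 (285) and CWHM-12 3 (288). The interaction called 4 genes with a class by batch term (App, Atp1b1, Fos and Spp1), 0 with a zonal gate of 4, 0 with the 4% gate and 0 to 5 when each library was left out. The difference in periportal share, −2.48 points, was 1.59 with the 4% gate and −8.53 to 2.54 when each library was left out, positive without CWHM-12 3 (1.89) and without DMSO 2 (2.54). Single values that turned were G6pc (0.37 without CWHM-12 1, and down to −2.46 without DMSO 3), Spp1 (0.46 with the 4% gate), Apof between the classes (−0.037 with the 4% gate), and the difference of responses of Atp1b1 (−1.46 with the 4% gate), Mt2 (−0.48 with the 4% gate) and Mt1 (0.20 without barcodes over 20000 UMIs, 0.091 without DMSO 1 and 0.012 without DMSO 2, and down to −1.28 without DMSO 3). The cause was not tested. The planned 10% hepatocyte gate left too few members and could not be fitted. Depth limits these results: CWHM-12 2 had 74 members and 136872 UMIs.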

Other observations

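Lists with no place in the comparisons above had the following values in periportal hepatocytes. Of 6 tested interferon-stimulated genes 4 were positive and 2 negative for CWHM-12 over DMSO, with a median log2 fold change of 0.12. The 6 tested YAP and TAZ target genes had a median of −0.38 in the fit. Their values within a batch, which are not from the fit, had medians of −0.28 in batch 2024.6 and 0.17 in batch 2024.12. The 6 tested ductal reprogramming genes had a median of −0.06. Of 13 cell cycle genes 2 were tested, Pcna and Ccnd1, with a median of −0.08. None of these genes passed.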
